A study of Homo sapiens with 6 samples.

Results

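Genes of the heat shock proteins and cytosolic chaperones were followed across 6 arrays of HT1080, a human fibrosarcoma line. Members were every gene whose symbol on the array annotation starts with HSPA, HSPB, HSP90A, DNAJA, DNAJB or DNAJC, the subunits of the chaperonin CCT, and HSPD1, HSPE1, HSPH1, HSP90AB1 and TCP1, less 6 symbols of the endoplasmic reticulum or of binding partners (HSPA5, DNAJB9, DNAJB11, DNAJC3, HSPBAP1 and HSPBP1). Only probe sets with 1 symbol counted, which gave 56 genes on 90 probe sets, of 11963 singly named genes on the array. Of the 56, 47 lay above the filter on dim probe sets and were tested among 8045 genes.

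The first group of 2 arrays came from cells carrying the pGUS vector with GFP and an siRNA against MT1-MMP, a membrane-anchored collagenase encoded by MMP14. The second came from cells with the same vector and an siRNA against integrin alpha3, a laminin receptor subunit encoded by ITGA3. The third, called mock, came from cells carrying the vector with GFP alone, so that all 3 groups share vector and GFP. The labels name neither a clone, nor a time after transfection, nor separate cultures for the 2 arrays of a group, so the p-values below rest on a spread between arrays that may be technical. Values are the deposited signal per probe set on a linear scale, scaled by the authors to a common level, and precision is limited by the number of arrays. Fold changes are given as log2 values ± the standard error of the limma fit.

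Chaperones bind proteins that are unfolded or not yet folded and let them reach their native form. HSP70 proteins do so in cycles of ATP hydrolysis that J-domain proteins (the DNAJ families) start and that exchange factors such as the HSP110 proteins reset. HSP90 acts later on client proteins such as kinases and steroid receptors, and the ring-shaped chaperonin CCT, also called TRiC, folds actin and tubulin. Many of these genes are induced by the transcription factor HSF1 when unfolded proteins accumulate, and tumour cells are known for high chaperone levels.

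The cells matched their label by markers: 9 of 9 mesenchymal markers lay above the filter, against 0 of 5 epithelial markers, 1 of 4 leukocyte markers on the array (CD3D) and 1 of 5 endothelial ones (PECAM1). The filter alone did not separate all of these, with mock means of 69.5 for S100A4 and 54.8 for COL1A2, against 54.1 for CD3D and 93.6 for PECAM1. The brightest mesenchymal markers, VIM and CD44, had mock means of 13695 and 4065. EPCAM, PTPRC and CDH5 had at most 6.7, 21.9 and 9.4, but other markers of these lists were brighter on some arrays. The epithelial KRT5, not above the filter, had 44.3 and 93.1 in mock cells, in the range of S100A4. The endothelial TEK had 64.1 on alpha3 siRNA replicate 1. The mesenchymal markers summed to 46877 and 36448 in MT1-MMP siRNA cells, 28063 and 23164 in alpha3 siRNA cells, and 23166 and 27839 in mock cells. MMP14 had signals of 812 and 717 in MT1-MMP siRNA cells and 999 and 1804 in alpha3 siRNA cells, against 1971 and 3064 in mock cells. ITGA3 had 148 and 347 in alpha3 siRNA cells, 1481 and 1634 in MT1-MMP siRNA cells, against 1139 and 1290 in mock cells. The 18 spiked hybridisation controls had a median ratio to the mock mean of 2.30 and 1.29 on the MT1-MMP siRNA arrays, 0.812 and 0.841 on the alpha3 siRNA arrays, and 0.927 and 1.07 on the mock arrays. These controls and the mesenchymal sum move with the MT1-MMP siRNA group in every comparison below that uses it. On the alpha3 siRNA arrays the controls lay below both mock arrays. The part of the controls and of the sum in the results was not tested. The sum rests mostly on the bright genes VIM, CD44, FN1 and SPARC. Of the 9 markers, 7 were above 0 with MT1-MMP siRNA against mock, while S100A4 (-0.28) and THY1 (-0.27) were below (background 49.7% below). CDH2 was highest with alpha3 siRNA (0.97 against mock). In bulk RNA, fewer cells of a type and less RNA per cell cannot be told apart.

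With MT1-MMP siRNA, chaperone genes mostly lay lower than in mock cells, while with alpha3 siRNA they lay on both sides. Of the 47 measured members, 37 had a log2 fold change below 0 in MT1-MMP siRNA cells (background, 49.7% of all genes), and the median was -0.23, against 0.0024 over all 8045 genes. Both MT1-MMP siRNA arrays lay below both mock arrays for 24 members (background 25.3%), and above both for 4 (background 24.6%). On the array level, the median distance of the members from the mock mean was -0.27 and -0.25 (log2) on the MT1-MMP siRNA arrays, -0.043 and 0.071 on the alpha3 siRNA arrays, and 0.052 and -0.052 on the mock arrays. The 2 MT1-MMP siRNA arrays therefore stood apart from the other 4 on this median. Without MT1-MMP siRNA replicate 1, the array with the brightest spiked controls, 30 members lay below both mock arrays (background 36%).

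No single member passed the threshold of a Benjamini-Hochberg adjusted p under 0.05 for MT1-MMP siRNA against mock, where limma called 0 of 8045 genes (background 0%). At an unadjusted p under 0.05, 11 members were lower (background 7.66%) and 1 was higher (background 6.76%). These unadjusted values are given as descriptions, and the lowest adjusted p of a member was 0.139.

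**Figure D1:**
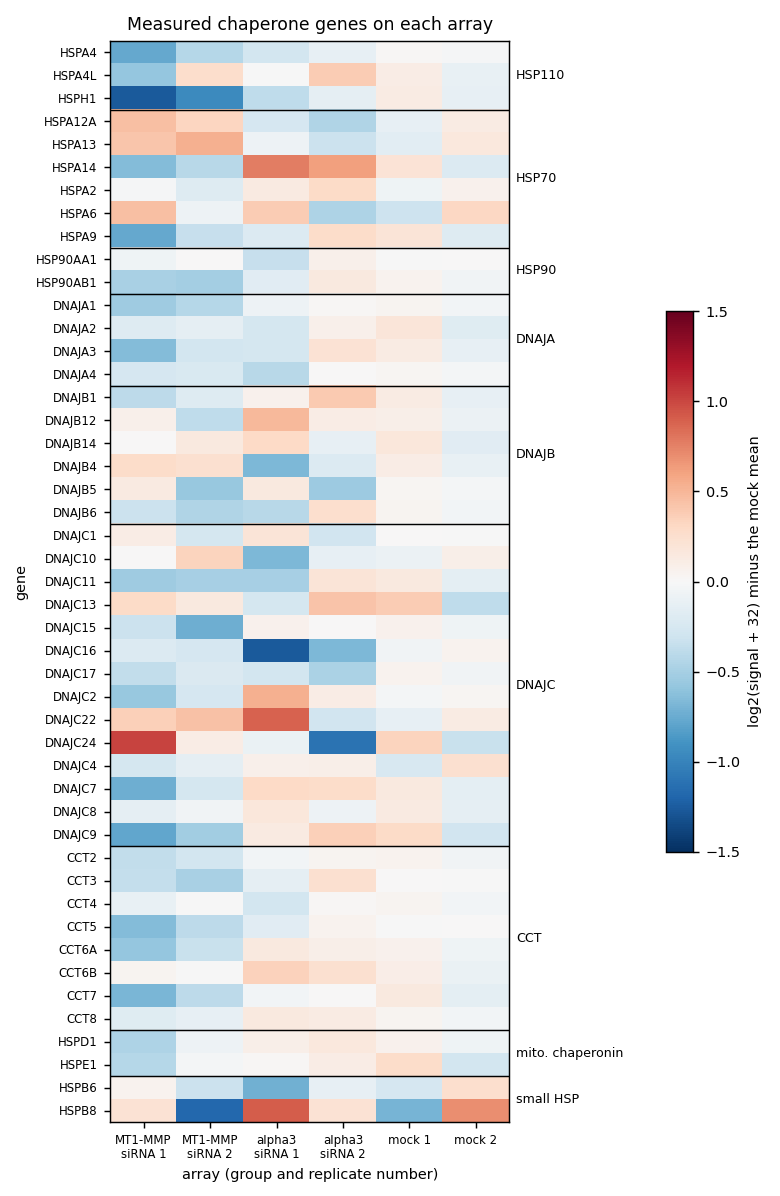
Heat map of the 47 measured members on the 6 arrays, with genes in rows by family and arrays in columns. Colour gives log2(signal + 32) minus the mean of the mock arrays: blue runs through most of the MT1-MMP siRNA columns, while the alpha3 siRNA columns hold both colours.

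The HSP110 proteins, exchange factors of HSP70 that also keep unfolded proteins in solution, included the member with the largest difference. HSPH1, known as HSP105, had signals of 736 and 913 in MT1-MMP siRNA cells, 1374 and 1636 in alpha3 siRNA cells, and 1968 and 1649 in mock cells. The MT1-MMP siRNA arrays were well below the rest, and alpha3 siRNA replicate 2 came close to mock replicate 2 without overlap of the groups. Its log2 fold change with MT1-MMP siRNA was -1.11 ± 0.20 (limma adjusted p = 0.139), 2.15-fold lower on the log2(signal + 32) scale. On its second probe set HSPH1 had 404 and 405 in MT1-MMP siRNA cells, 1154 and 1203 in alpha3 siRNA cells, and 1218 and 1058 in mock cells, a log2 fold change of -1.42 in MT1-MMP siRNA cells. Here the alpha3 siRNA arrays overlapped those of mock cells.

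HSPA4, known as APG-2, had 617 and 791 in MT1-MMP siRNA cells, 886 and 985 in alpha3 siRNA cells, and 1092 and 1059 in mock cells. Its groups did not overlap, and its log2 fold change with MT1-MMP siRNA was -0.60 ± 0.19 (adjusted p = 0.239). On all 4 of its probe sets the MT1-MMP siRNA mean was below mock, the log2 differences running from -0.60 to -0.29. HSPA4L, the third gene of the family, overlapped between all groups, with a log2 fold change of -0.16.

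The cytosolic HSP90 proteins come from 2 genes, of which HSP90AA1 is the more stress-inducible and HSP90AB1 the more constitutive. HSP90AB1 had 6966 and 6901 in MT1-MMP siRNA cells, 8740 and 10820 in alpha3 siRNA cells, and 10171 and 9460 in mock cells. Only the MT1-MMP siRNA arrays stood apart, with a log2 fold change against mock of -0.50 ± 0.15 (adjusted p = 0.220). HSP90AA1 had 9106 and 9537 in MT1-MMP siRNA cells, 7452 and 10052 in alpha3 siRNA cells, and 9466 and 9531 in mock cells. Its groups overlapped, the log2 fold change with MT1-MMP siRNA was -0.03 ± 0.17, and its 4 probe sets ranged from -0.20 to -0.03. With quantile normalization HSP90AA1 was at -0.29 and HSP90AB1 at -0.74. The difference between the fold changes of these 2 genes was not tested.

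A list of known HSF1 targets gave 11 measured members, of which 10 were below 0 in MT1-MMP siRNA cells (background 49.7%). Their median was -0.29. The list was written with earlier results of these data known, so this count is a description only. Of the listed genes not measured, HSPB1 lay under the filter, with both MT1-MMP siRNA arrays above both mock arrays. HSPA1A, HSPA1B and HSPA8 had only probe sets with several symbols. The list left out HSPA6, also a heat-induced target, which was at 0.19. Promoters of 5 members known as HSF1 targets are shown. HSP90AB1, HSP90AA1, HSPD1 and HSPA6 were picked among members whose window held the motif described next. HSPH1, the lowest member with MT1-MMP siRNA, was added whether or not its window held it. DNAJB6, whose window also held it, is not shown, so matches among the 5 shown are no finding. HSP90AA1 and HSPA6 overlapped mock. HSF1 binds alternating GAA and TTC units. The motif searched was GAANNTTC followed by NN and GAA, on both strands of the 250 bases before each start site. It was in 0.441% of all 35116 RefSeq promoter windows, in 5 of 67 windows of the members, and in 5 of the 50 members that had a window. Those 5 were DNAJB6, HSP90AA1, HSP90AB1, HSPA6 and HSPD1. The shorter GAANNTTC or TTCNNGAA, which lies within it, was in 11.6% of all windows and 18 of the 67. The sequences are from RefSeq on GRCh38.p14, 5' to 3' on the gene's strand and ending at the base before the start site, with the matches to the 3-unit motif in capitals.
HSPH1, chr13:31162389-31162638, minus strand: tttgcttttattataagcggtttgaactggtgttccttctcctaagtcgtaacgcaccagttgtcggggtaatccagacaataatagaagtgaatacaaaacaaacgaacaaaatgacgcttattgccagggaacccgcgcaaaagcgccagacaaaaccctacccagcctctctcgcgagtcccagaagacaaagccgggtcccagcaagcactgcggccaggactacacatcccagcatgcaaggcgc
HSP90AB1, chr6:44247693-44247942, plus strand: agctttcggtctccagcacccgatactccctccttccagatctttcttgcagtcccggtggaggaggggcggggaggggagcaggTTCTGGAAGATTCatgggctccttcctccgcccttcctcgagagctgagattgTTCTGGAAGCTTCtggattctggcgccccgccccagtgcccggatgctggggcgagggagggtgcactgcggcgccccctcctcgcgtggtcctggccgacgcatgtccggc
HSP90AA1, chr14:102087045-102087294, minus strand: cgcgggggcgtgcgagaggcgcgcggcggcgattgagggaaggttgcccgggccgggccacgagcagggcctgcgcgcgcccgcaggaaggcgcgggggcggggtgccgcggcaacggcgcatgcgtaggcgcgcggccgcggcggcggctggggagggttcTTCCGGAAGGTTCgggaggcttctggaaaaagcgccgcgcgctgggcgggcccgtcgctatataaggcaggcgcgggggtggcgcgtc
HSPD1, chr2:197499841-197500090, minus strand: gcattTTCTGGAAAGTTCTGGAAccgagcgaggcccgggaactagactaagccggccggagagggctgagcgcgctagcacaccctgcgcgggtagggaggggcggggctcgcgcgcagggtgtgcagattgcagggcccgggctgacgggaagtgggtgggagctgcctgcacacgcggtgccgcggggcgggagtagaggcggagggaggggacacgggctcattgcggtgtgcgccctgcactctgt
HSPA6, chr1:161524290-161524539, plus strand: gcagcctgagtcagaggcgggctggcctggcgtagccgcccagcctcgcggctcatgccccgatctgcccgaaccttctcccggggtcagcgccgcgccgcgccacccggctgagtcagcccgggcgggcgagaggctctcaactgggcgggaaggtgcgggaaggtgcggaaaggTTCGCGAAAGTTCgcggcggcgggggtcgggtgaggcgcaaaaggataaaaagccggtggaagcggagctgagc
The HSP90AB1 window, 1 of 3 that RefSeq gives this gene, held 2 matches between 165 and 100 bases before the start, and the HSP90AA1 window, 1 of 2, held 1 match from 88 to 76 bases before it. In HSPA6 the match lay 74 to 62 bases before the start, and in the HSPD1 window, 1 of 2, the 2 matches overlapped from 245 to 228 bases before it. No match was in the HSPH1 window, nor in the other windows of HSP90AB1, HSP90AA1 and HSPD1, which are not shown. A match to these letters is a description, and no binding was measured here.

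The HSP70 genes were split, with 3 of the 6 measured on each side of 0 in MT1-MMP siRNA cells. HSPA9, the mitochondrial HSP70 known as mortalin, had 974 and 1310 in MT1-MMP siRNA cells, 1457 and 2042 in alpha3 siRNA cells, and 1926 and 1462 in mock cells. Its MT1-MMP siRNA arrays were below all others, with a log2 fold change against mock of -0.56 ± 0.24 (adjusted p = 0.347). HSPA13, an HSP70 relative of microsomes known as STCH, went the other way, with 578 and 630 in MT1-MMP siRNA cells, 403 and 335 in alpha3 siRNA cells, and 378 and 481 in mock cells. Its log2 fold change with MT1-MMP siRNA was 0.47 ± 0.21 (adjusted p = 0.346), and it was the 1 member higher at an unadjusted p under 0.05. On its second probe set HSPA13 overlapped mock, with 324 and 286 in MT1-MMP siRNA cells, 290 and 254 in alpha3 siRNA cells, and 223 and 301 in mock cells, and the log2 fold changes with MT1-MMP siRNA were 0.21 against mock and 0.15 against alpha3 siRNA. HSPA12A, a distant relative of HSP70, had 103 and 91.5 in MT1-MMP siRNA cells, 51.2 and 40.5 in alpha3 siRNA cells, and 59.2 and 75.4 in mock cells, without overlap between the groups.

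HSPA6, an HSP70 gene that is close to silent without stress and strongly heat-induced, had 78.4 and 44.2 in MT1-MMP siRNA cells, 73.2 and 26.3 in alpha3 siRNA cells, and 32.9 and 67.9 in mock cells. These values overlapped throughout, and so did those of the testis-enriched HSPA2 between MT1-MMP siRNA and mock. The genes HSPA1A, HSPA1B and HSPA8 lay only on probe sets with several symbols and were not members.

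HSPA14 and DNAJC2 encode the ribosome-associated pair that meets new chains as they leave the ribosome, HSPA14 (HSP70L1) as the HSP70 and DNAJC2 (MPP11) as its J-domain partner. HSPA14 had 193 and 232 in MT1-MMP siRNA cells, 566 and 507 in alpha3 siRNA cells, and 375 and 272 in mock cells. Its 3 groups were ordered without overlap, lowest with MT1-MMP siRNA and highest with alpha3 siRNA. Between the siRNAs HSPA14 was lower with MT1-MMP siRNA, with a log2 fold change of -1.22 ± 0.22 (limma adjusted p = 0.0411), the 1 member of 47 called in that comparison (background 0.572% of genes called lower, with 0 members called higher at a background of 0.82%). This call was lost when any 1 of the 6 arrays was left out, where the log2 fold change ranged from -1.34 to -1.11, and over all settings tried the adjusted p ran from 0.0380 to 0.268. Against mock its log2 fold changes were -0.53 in MT1-MMP siRNA cells (adjusted p = 0.316) and 0.69 in alpha3 siRNA cells (adjusted p = 0.851).

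DNAJC2 had 397 and 502 in MT1-MMP siRNA cells, 885 and 657 in alpha3 siRNA cells, and 589 and 617 in mock cells. It had the same order of groups as HSPA14, again without overlap. Between the siRNAs its log2 fold change was -0.73 ± 0.22 (adjusted p = 0.104).

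**Figure D2:**
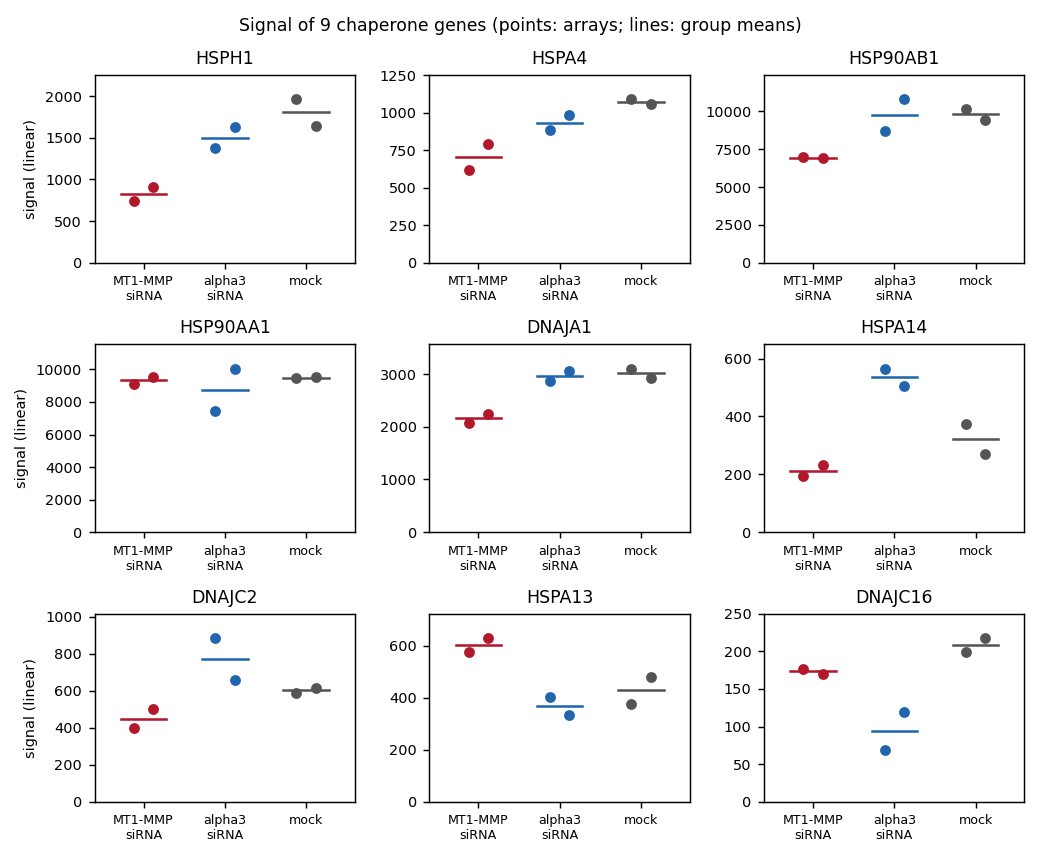
Signal (linear, from 0) of 9 members in 3 groups of 2 arrays, where points are arrays and lines group means. The MT1-MMP siRNA points lie lowest for HSPH1, HSPA4, HSP90AB1, DNAJA1, HSPA14 and DNAJC2, overlap mock for HSP90AA1, and lie highest for HSPA13, and the alpha3 siRNA points lie lowest for DNAJC16.

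The DNAJA proteins are the J-domain partners closest to the bacterial DnaJ. All 4 measured genes had log2 fold changes below 0 in MT1-MMP siRNA cells (background 49.7%), with a median of -0.36. DNAJA1, a cytosolic partner of HSC70, had 2080 and 2244 in MT1-MMP siRNA cells, 2863 and 3054 in alpha3 siRNA cells, and 3104 and 2934 in mock cells. Its MT1-MMP siRNA arrays stood apart from the other 4, with a log2 fold change against mock of -0.48 ± 0.16 (adjusted p = 0.247), against -0.69 on its other probe set. The mitochondrial DNAJA3 had a log2 fold change of -0.47 and DNAJA4 of -0.24, both without overlap with mock, and DNAJA2 was at -0.16 with overlap.

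Of the DNAJB genes, 6 of 7 were measured, and with MT1-MMP siRNA their log2 fold changes ran from -0.39 for DNAJB6, which suppresses polyglutamine aggregation, to 0.26 for DNAJB4. DNAJB1, the heat-inducible HSP40, had 717 and 828 in MT1-MMP siRNA cells, 990 and 1257 in alpha3 siRNA cells, and 1038 and 864 in mock cells. Both MT1-MMP siRNA arrays were below all others, with a log2 fold change against mock of -0.29 ± 0.20 (adjusted p = 0.552), and it was -0.52 against alpha3 siRNA (adjusted p = 0.179). On its other probe set DNAJB1 had 495 and 514 in MT1-MMP siRNA cells, 811 and 831 in alpha3 siRNA cells, and 669 and 779 in mock cells, a log2 fold change against mock of -0.49 without overlap. DNAJB4, a muscle-enriched HSP40, had 134 and 129 in MT1-MMP siRNA cells, 53.2 and 86.4 in alpha3 siRNA cells, and 116 and 94.0 in mock cells, without overlap of the groups. Its other probe set, at 66.0 and 115 in MT1-MMP siRNA cells and 89.2 and 104 in alpha3 siRNA cells, against 87.7 and 102 in mock cells, overlapped.

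The DNAJC genes hold a J domain in otherwise unlike proteins, and 14 of 17 were measured. In MT1-MMP siRNA cells 10 of them were below 0 (background 49.7%), and the log2 fold changes ran from -0.65 to 0.56. DNAJC9, which also binds histones, had 471 and 570 in MT1-MMP siRNA cells, 914 and 1076 in alpha3 siRNA cells, and 1023 and 673 in mock cells. Its MT1-MMP siRNA arrays were below all others, with a log2 fold change of -0.65 ± 0.24 against mock (adjusted p = 0.281) and -0.90 against alpha3 siRNA (adjusted p = 0.0851). DNAJC7, which holds clients with both HSP70 and HSP90, had 450 and 635 in MT1-MMP siRNA cells, 952 and 934 in alpha3 siRNA cells, and 852 and 694 in mock cells. Its 3 groups did not overlap, and its log2 fold changes were -0.50 against mock (adjusted p = 0.347) and -0.78 ± 0.22 against alpha3 siRNA (adjusted p = 0.0926). Against mock, DNAJC9 was at -0.36 without mock replicate 1 and DNAJC7 at -0.26 without MT1-MMP siRNA replicate 1.

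DNAJC15, a J protein of the mitochondrial inner membrane known as MCJ, had 764 and 567 in MT1-MMP siRNA cells, 1001 and 966 in alpha3 siRNA cells, and 1002 and 918 in mock cells. Only the MT1-MMP siRNA arrays stood apart (log2 fold change against mock -0.52, SE 0.20, adjusted p = 0.290). DNAJC24, which acts in diphthamide synthesis on elongation factor 2, spread widely within groups, at 472 and 240 in MT1-MMP siRNA cells, 202 and 83.9 in alpha3 siRNA cells, and 284 and 166 in mock cells. Its log2 fold change between the siRNAs was 1.17 ± 0.41 (adjusted p = 0.144), and it ranged from 0.66 without alpha3 siRNA replicate 2 to 1.67 without alpha3 siRNA replicate 1.

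Both J proteins described next lie in the endoplasmic reticulum and were lowest with alpha3 siRNA on their brightest probe set. DNAJC10, the reductase ERdj5, had 523 and 666 in MT1-MMP siRNA cells, 315 and 478 in alpha3 siRNA cells, and 491 and 557 in mock cells. On its other probe set alpha3 siRNA cells (141 and 122) overlapped mock cells (131 and 152). There the MT1-MMP siRNA arrays stood apart, at 207 and 196. DNAJC16 had 177 and 170 in MT1-MMP siRNA cells, 68.2 and 119 in alpha3 siRNA cells, and 199 and 218 in mock cells. For DNAJC16 the 3 groups did not overlap, and its log2 fold change in alpha3 siRNA cells was -0.96 ± 0.24 (adjusted p = 0.775), the lowest of any member in that comparison. Its other probe sets differed from this, with log2 fold changes of -0.20 and 0.50. Another disagreement was in DNAJC4, a J protein of little known function, which was at -0.20 in MT1-MMP siRNA cells on its brightest probe set and at 1.68 on another.

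The CCT rings are built of related subunits, and TCP1, the first of them, lay only on probe sets with several symbols. Of the 8 measured genes 7 were below 0 in MT1-MMP siRNA cells, 6 of them without overlap with mock, and the family median was -0.37. Over all genes 49.7% were below 0 and 25.3% lay lower without overlap. CCT7 had 1972 and 2431 in MT1-MMP siRNA cells, 3098 and 3201 in alpha3 siRNA cells, and 3530 and 2888 in mock cells. Its log2 fold change against mock was -0.54 ± 0.18 (adjusted p = 0.257). CCT5 had 3730 and 4474 in MT1-MMP siRNA cells, 5216 and 6094 in alpha3 siRNA cells, and 5884 and 5900 in mock cells, a log2 fold change of -0.52 ± 0.16 (adjusted p = 0.220). In both genes the MT1-MMP siRNA arrays lay below the other 4, while alpha3 siRNA and mock overlapped.

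CCT6A had 1066 and 1271 in MT1-MMP siRNA cells, 1797 and 1719 in alpha3 siRNA cells, and 1692 and 1541 in mock cells (log2 fold change against mock -0.46, adjusted p = 0.290). CCT3 had 2253 and 2056 in MT1-MMP siRNA cells, 2639 and 3425 in alpha3 siRNA cells, and 2923 and 2879 in mock cells (-0.43, adjusted p = 0.334). CCT2 had 3708 and 3964 in MT1-MMP siRNA cells, 4663 and 4955 in alpha3 siRNA cells, and 4963 and 4640 in mock cells (-0.32, adjusted p = 0.361). For these 3 subunits too the MT1-MMP siRNA arrays were the lowest of the 6 on the probe set used. On a second probe set CCT2 overlapped mock, at 2329 and 2795 with MT1-MMP siRNA against 3811 and 2751 in mock cells (-0.34). So did CCT6A, at 688 and 882 against 1384 and 760 (-0.39).

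Differences between subunits were not tested. CCT8 had 2583 and 2695 in MT1-MMP siRNA cells, 3259 and 3204 in alpha3 siRNA cells, and 3011 and 2854 in mock cells, a log2 fold change of -0.15 ± 0.15. CCT4 overlapped between the groups, at 6612 and 7107 in MT1-MMP siRNA cells, 5869 and 7178 in alpha3 siRNA cells, and 7347 and 6896 in mock cells, and its log2 fold change of -0.05 became -0.26 with quantile normalization. CCT6B, the testis-enriched paralog of CCT6A, was dim and overlapped mock with MT1-MMP siRNA, at 83.4 and 80.1, against 111 and 101 in alpha3 siRNA cells and 88.8 and 72.6 in mock cells. Leaving CCT subunits aside changed the median little: without CCT2 to CCT8 other than CCT6B the members' median was -0.22 over 40 genes.

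**Figure D3:**
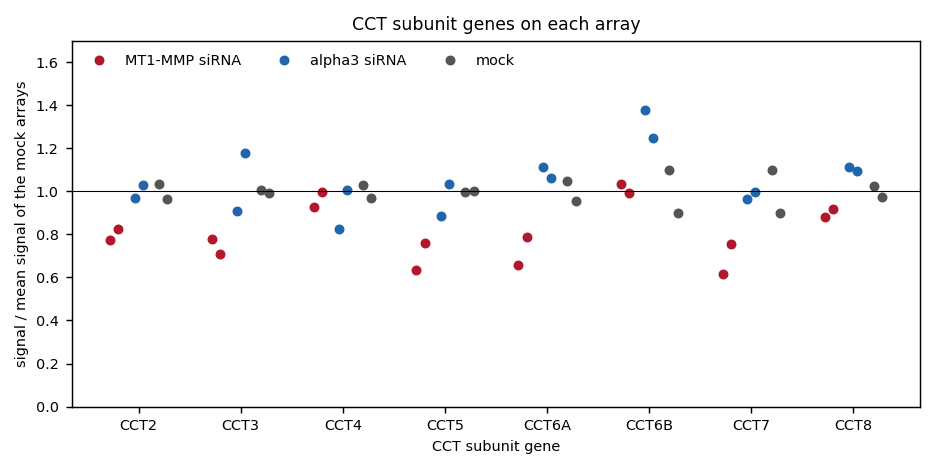
Signal of the 8 measured CCT subunit genes on each array, divided by the mean of the mock arrays (linear axis from 0). The MT1-MMP siRNA points lie below those of the other groups for CCT2, CCT3, CCT5, CCT6A, CCT7 and CCT8, and among them for CCT4.

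The mitochondrial chaperonin is built of HSPD1 (HSP60) and its lid HSPE1 (HSP10), neighbouring genes. HSPD1 had 5053 and 6660 in MT1-MMP siRNA cells, 7417 and 7830 in alpha3 siRNA cells, and 7344 and 6677 in mock cells. The second MT1-MMP siRNA array lay just under the lower mock array, and the log2 fold change was -0.27 ± 0.17 (adjusted p = 0.497), against -0.73 on the other probe set. Without MT1-MMP siRNA replicate 1 it was -0.072. HSPE1 had 1554 and 2063 in MT1-MMP siRNA cells, 2127 and 2266 in alpha3 siRNA cells, and 2551 and 1732 in mock cells. Its log2 fold change of -0.23 turned to 0.047 without mock replicate 1, and the mock arrays themselves lay far apart. Some members were grouped by location after the values were seen, so their counts are descriptions only. The 6 mitochondrial members (HSPA9, HSPD1, HSPE1, DNAJA3, DNAJC11 and DNAJC15) were all below 0 in MT1-MMP siRNA cells (background 49.7%), with a median of -0.49. The 6 of the endoplasmic reticulum (HSPA13, DNAJB12, DNAJB14, DNAJC1, DNAJC10 and DNAJC16) had a median of -0.0026, and this difference was not tested.

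The small heat shock proteins hold unfolded proteins without ATP, and they were dim in all groups. Of 6 genes 2 passed the filter, HSPB6 and HSPB8, and both overlapped between MT1-MMP siRNA and mock. HSPB8, the partner of BAG3 in selective autophagy, had 78.3 and 9.8 in MT1-MMP siRNA cells, 146 and 78.7 in alpha3 siRNA cells, and 26.6 and 122 in mock cells. HSPB1, known as HSP27, did not pass, with 24.5 and 23.7 in MT1-MMP siRNA cells, 42.8 and 7.0 in alpha3 siRNA cells, and 2.4 and 2.9 in mock cells. Both mock arrays were the lowest there. The other members under the filter were HSPB2, HSPB3, HSPB7, HSPA1L, DNAJB2, DNAJC6, DNAJC12 and DNAJC28, with no value above 93.2.

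For alpha3 siRNA against mock, limma called 0 members (background 0.0249%, 2 of 8045 genes). The members' median log2 fold change was -0.012, against -0.014 over all genes, with 23 above and 24 below 0 (background 52% below 0). At an unadjusted p under 0.05 HSPA14 was higher (background 2.51%) and DNAJC16 lower (background 3.22%). This comparison shares the mock arrays with the one above. The alpha3 siRNA arrays lay above both mock arrays for 9 members (background 16.4%) and below both for 7 (background 18%), shares near those of all genes. The CCT family had a median of 0.027.

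**Figure D4:**
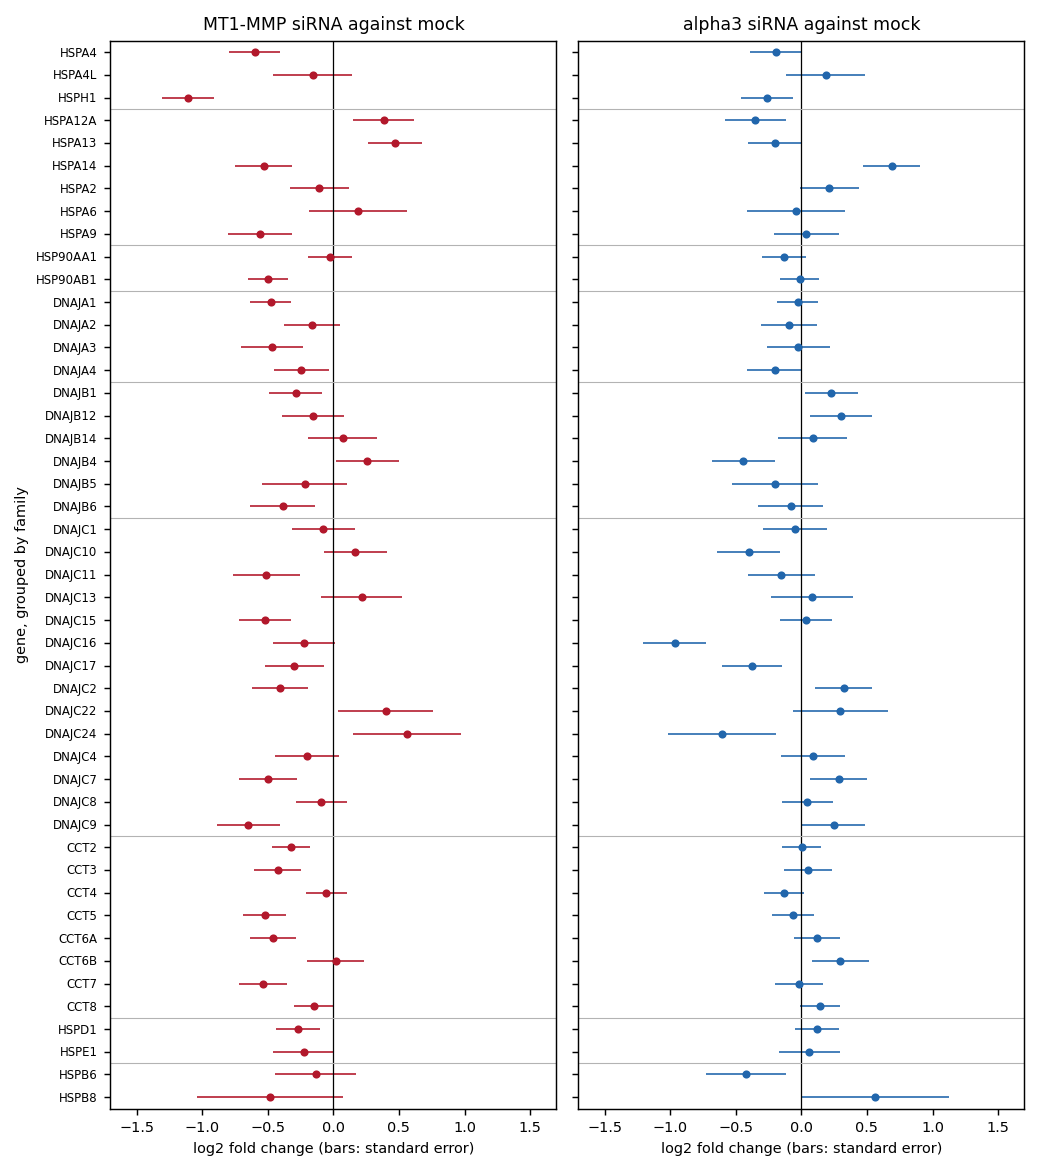
Log2 fold change of the 47 measured members, with standard errors, for MT1-MMP siRNA (left) and alpha3 siRNA (right) against mock. Left of 0 are 37 members with MT1-MMP siRNA and 24 in alpha3 siRNA cells, and both comparisons share the mock arrays.

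With the siRNAs set against each other, limma called 112 of 8045 genes (background 1.39%), HSPA14 among them. The members' median log2 fold change, MT1-MMP siRNA over alpha3 siRNA, was -0.30, against 0.022 over all genes, and 34 of 47 lay below 0 (background 48.1%). In all, 25 members had both MT1-MMP siRNA arrays below both alpha3 siRNA arrays (background 25.9%) while 6 lay above (background 28%). At an unadjusted p under 0.05, 15 members were lower and 6 higher (background 11.7% each way). By p-value HSPH1 came next after HSPA14, with a log2 fold change of -0.85 ± 0.20 (adjusted p = 0.0677). The 6 higher ones were DNAJC24, DNAJC16, HSPA12A, DNAJB4, HSPA13 and DNAJC10, with log2 fold changes from 0.57 to 1.17 and adjusted p-values from 0.110 to 0.204. Leaving out 1 array took DNAJB4 to 0.19 (without MT1-MMP siRNA replicate 1), and DNAJC10 to 0.29, DNAJC16 to 0.45 (both without alpha3 siRNA replicate 1).

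Members were also set beside genes of like signal. In all 5 ranges of mean signal the members' median log2 fold change with MT1-MMP siRNA was below that of all genes. It was -0.11 against 0.069 under a signal of 100 (11 members), -0.19 against 0.016 from 100 to 300 (8 members), and -0.35 against -0.073 from 300 to 1000 (14 members). It was -0.47 against -0.070 from 1000 to 3000 (8 members), and -0.30 against 0.19 above 3000 (6 members).

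The partners of these chaperones were read from 5 lists outside the rule, also written with earlier results of these data known. In these lists limma called 0 genes against mock with either siRNA. Of 11 measured HSP90 co-chaperones, 10 were below 0 in MT1-MMP siRNA cells, against 49.7% of all genes, with a median of -0.32. STIP1, known as HOP, which links HSP70 to HSP90, had 722 and 794 in MT1-MMP siRNA cells, 1336 and 1541 in alpha3 siRNA cells, and 1379 and 1302 in mock cells. Its MT1-MMP siRNA arrays stood apart, with log2 fold changes of -0.80 ± 0.18 against mock (adjusted p = 0.164) and -0.89 against alpha3 siRNA (adjusted p = 0.0534). NUDC was at -0.77, FKBP4, an immunophilin of steroid receptor complexes, at -0.59, and CDC37, which brings kinases to HSP90, at -0.51 (adjusted p = 0.210 to 0.337). FKBP5, the glucocorticoid-induced immunophilin, was the exception, with 86.8 and 74.2 in MT1-MMP siRNA cells and 38.0 and 54.8 in alpha3 siRNA cells, against 29.3 and 43.0 in mock cells (log2 fold change 0.73 in MT1-MMP siRNA cells, adjusted p = 0.270). Its means in mock (36.15) and alpha3 siRNA cells (46.4) lay under the filter signal of 47.5. It passed the filter only through the MT1-MMP siRNA arrays, so its direction there is a description only.

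Co-chaperones of HSP70 had a median of -0.13 over 11 genes, with BAG2 (-0.60) and the mitochondrial exchange factor GRPEL1 (-0.49) lower and the ubiquitin ligase STUB1, known as CHIP, higher (0.47) at an unadjusted p under 0.05. HSPBP1, an exchange factor, was at 286 and 403 in MT1-MMP siRNA cells, 624 and 552 in alpha3 siRNA cells, and 367 and 383 in mock cells, a log2 fold change of 0.60 in alpha3 siRNA cells (adjusted p = 0.851). Prefoldin, which hands actin and tubulin to CCT, and the tubulin cofactors had a median of -0.036 over 12 genes, with PFDN2 at -0.47 and PFDN4 at 0.51 in MT1-MMP siRNA cells, and PFDN4 at 0.72 in alpha3 siRNA cells. TBCD, a tubulin cofactor, was at -0.68 between the siRNAs (adjusted p = 0.163).

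Of 12 measured chaperones of the endoplasmic reticulum and other organelles, 8 were above and 4 below 0 with MT1-MMP siRNA, against 49.7% of all genes below 0, with a median of 0.26. With alpha3 siRNA 11 were above 0 and 1 below, against 52% of all genes below 0, with a median of 0.24. The disulfide isomerases PDIA4 (0.56) and PDIA6 (0.51) were higher with MT1-MMP siRNA at an unadjusted p under 0.05, and SDF2L1 was lower (-0.80, adjusted p = 0.281). Regulators of heat shock transcription gave 3 measured genes. HSF1, the heat shock factor itself, had 176 and 245 in MT1-MMP siRNA cells, 185 and 268 in alpha3 siRNA cells, and 226 and 251 in mock cells, and overlapped throughout. EEF1A1, an elongation factor that also acts with HSF1, was at 0.43 in MT1-MMP siRNA cells (adjusted p = 0.303), and HSBP1, which binds HSF1, at 0.05.

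**Figure D5:**
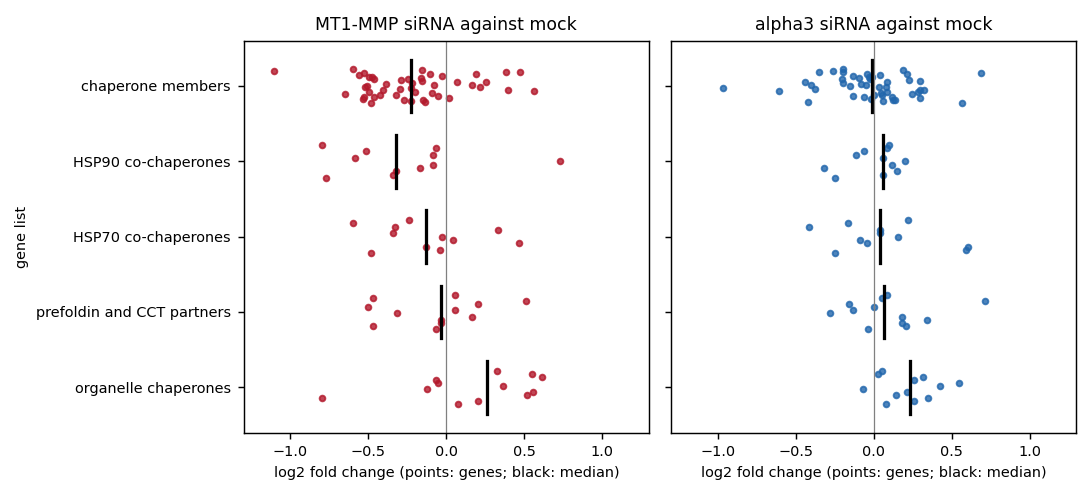
Log2 fold changes of the 47 members and of 4 lists of partner genes, for MT1-MMP siRNA (left) and alpha3 siRNA (right) against mock, with points for genes and black bars for medians. With MT1-MMP siRNA the medians run from -0.32 for HSP90 co-chaperones to 0.26 for organelle chaperones.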

How the data were processed

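Total RNA of HT1080 cells was measured on 6 one-colour arrays of 22283 probe sets, 2 in each of 3 groups. Values are the deposited intensity per probe set, which the authors scaled to a common trimmed mean, as read from the values. Neither labels nor headers name the summarisation, background or detection methods. Signals were floored at 1, an offset of 32 was added and log2 taken, so fold changes of dim genes are understated. Dim probe sets, under the 40th percentile of the mean (signal 47.5), were dropped, and each gene was read on its brightest probe set with 1 symbol. The 3 group means were fitted in limma 3.58.1 (R 4.3.3) with a variance trend, and p-values were adjusted by Benjamini-Hochberg over 8045 genes, in 3 comparisons. The fit was tested on simulated data. Background percentages in the report are shares of all genes tested.

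Members and lists were chosen with earlier results of these data known. Values per array are given for members of a named core (HSP90, HSP110, CCT, the mitochondrial chaperonin, DNAJA1, DNAJB1, HSPA9 and HSPB1) and for every member with an unadjusted p under 0.05 in a comparison. Those at the ends of families are also named. From each list of partners up to 4 genes by p in a comparison were taken. Symbols come from the platform's dated annotation. Replicate numbers were not used to pair the arrays in the main fit. The correlation of same-numbered deviations was -0.18 between MT1-MMP siRNA and mock, -0.18 between alpha3 siRNA and mock, and 0.13 between the siRNAs. These correlations cannot show whether the arrays were made in pairs. Alternatives changed the normalization, offset, filter, probe set summary, variance trend, arrays and pairing.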

Additional observations from a re-analysis of the deposited data

Results flagged for a closer look

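In 5 cases a probe set of a member that lay above the filter but that the gene-level fit did not use had both arrays of an siRNA group above both mock arrays. With MT1-MMP siRNA these were CCT8, with a log2 difference of 0.12, DNAJC10, with 0.43, and DNAJC4, with 1.68. DNAJC4 had signals of 170 and 144 there with MT1-MMP siRNA, against 6.7 and 56.7 in mock cells, so the mock arrays lay far apart. This probe set passed the filter signal of 47.5 only through the MT1-MMP siRNA arrays, with means of 31.7 in mock and 46.85 in alpha3 siRNA cells. With alpha3 siRNA they were DNAJB1, with 0.18, and DNAJB12, with 0.31. For CCT8 and DNAJC4 the brightest probe set had the opposite sign. Among all 8045 genes, both MT1-MMP siRNA arrays lay above both mock arrays for 24.6%, and both alpha3 siRNA arrays did for 16.4%. The 5 cases are therefore a description, and only the higher direction was listed. Other unused probe sets, such as those of HSPH1, HSPD1 and DNAJA1, had both MT1-MMP siRNA arrays below both mock arrays. Under the filter, HSPB1, DNAJC28, DNAJB2 and 1 probe set of DNAJC6 had both arrays of each siRNA group above both mock arrays, and another probe set of DNAJC6 did so with alpha3 siRNA. DNAJC28 had 27.3 and 16.4 in MT1-MMP siRNA cells, 40.6 and 21.9 in alpha3 siRNA cells, and 4.4 and 4.0 in mock cells.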

How the results depend on the processing

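The 2 arrays of each group limit all calls, and dim members rest on signals near the filter. For MT1-MMP siRNA against mock, the members' median (-0.23) was -0.32 with the filter at the 60th percentile and -0.27 to -0.22 without single arrays. Members called stayed at 0 in every other setting tried and were 1 with a crossed replicate block, added after seeing the data. Genes called (0) were 1 with quantile normalization, 3 with offset 1, 6 with offset 100, 2 with the mean of probe sets, 2 with every probe set, 7 with only the compared groups, 11 with the replicate block, 51 with the crossed block, and 0 to 8 without single arrays. For alpha3 siRNA against mock, the members' median (-0.012) turned to 0.016 with quantile normalization, 0.013 with a common 75th percentile and 0.018 with no filter, and ranged from -0.067 to 0.071 without single arrays. Genes called (2) were 1 with quantile normalization, offset 100, no filter, every probe set or only the compared groups, 0 with offset 1 or the 60th percentile, 4 with the replicate block, 7 with the crossed block, and 0 to 7 without single arrays. Between the siRNAs, the members' median (-0.30) was -0.38 with offset 1, -0.39 at the 60th percentile, and -0.33 to -0.26 without single arrays. Members called (1) were 2 with quantile normalization, the mean of probe sets, every probe set or the replicate block, and 0 with offset 1, no filter, no trend, only the compared groups or without any single array. Genes called (112) were 69 with offset 1, 22 with no filter, 178 at the 60th percentile, 72 with no trend, and 0 to 78 without single arrays (0 without either MT1-MMP siRNA array). Signs turned with MT1-MMP siRNA for CCT6B (-0.049 with quantile normalization, -0.087 to 0.12 without single arrays), DNAJC16 (0.14 with the mean of probe sets), HSP90AA1 (-0.061 to 0.0057 without single arrays) and HSPE1 (-0.50 to 0.047). Where a group was left with 1 array, that array was assumed to vary like the others. The cause of these changes was not tested.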

Other observations

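Probe sets annotated to several symbols were left out of the members, and their values are given without naming a gene for each. The 3 whose symbols include HSPA1A and HSPA1B, the heat-inducible HSP70 genes, lay lower with MT1-MMP siRNA than in mock cells on both arrays: the brightest had 640 and 597 in MT1-MMP siRNA cells, 867 and 1419 in alpha3 siRNA cells, and 878 and 1289 in mock cells. On another the signals were 195 and 217 in MT1-MMP siRNA cells, 272 and 505 in alpha3 siRNA cells, and 332 and 466 in mock cells. The 3 whose symbols include TCP1 also had both MT1-MMP siRNA arrays below both mock arrays. Over all genes tested 25.3% did so, and probe sets that share symbols are not separate genes. Of the 3 with TCP1, 1 had 289 and 326 in MT1-MMP siRNA cells, 438 and 455 in alpha3 siRNA cells, and 499 and 419 in mock cells. The 3 whose symbols include HSPA8, the constitutive HSP70, were split, with log2 differences between MT1-MMP siRNA and mock of -0.36, -0.17 and 0.15. The 2 whose symbols include DNAJB6 overlapped mock, with log2 differences of -0.030 and -0.026. None of these values was tested.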
